A study of Mus musculus with 9 samples.

Results

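The RNA of 10 genes of fibroblast growth factor (FGF) signalling was followed in mouse mammary cells: the receptors Fgfr1, Fgfr2 and Fgfr3, the inhibitors Spry1, Spry2, Spry4, Spred1 and Dusp6, and the transcription factors Etv4 and Etv5. They were chosen by name, from among 18194 genes measured, and every probe set that the array's annotation gives to one of these symbols alone was used, 29 of 45101. MaSC organoids (Org) were grown from a sorted fraction of mammary cells enriched in mammary gland stem cells (MaSCs). yMaSC organoids (yOrg) were grown from luminal differentiated (LD) cells that had been turned into MaSC-like cells by lentiviral, doxycycline-inducible wild-type YAP together with the transactivator rtTA, and were then kept without doxycycline. LD cells (Lum), the cells set against both, were sorted from mammary glands of virgin female C57BL/6J mice as lineage-negative, EpCAM-high, CD49f-low and CD61- cells, and were lysed fresh, untransduced and without culture. Both kinds of organoid were embedded in Matrigel under medium with EGF, basic FGF, heparin, noggin and R-spondin1. Each group had 3 biological samples lettered A, B and C, each on 1 Affymetrix array, 9 arrays in all. LD cells therefore differed from both organoids in isolation from tissue by sorting, culture, matrix and added growth factors as well as in cell identity. These cannot be told apart. In RNA of whole samples, fewer cells of a type and less RNA per cell cannot be told apart either.

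FGFs bind receptor tyrosine kinases together with heparan sulfate, for which heparin stands in culture medium, and the receptors pass the signal through Ras, Raf and MEK to the kinase ERK. ERK activity raises transcription of its own inhibitors: Sprouty (Spry) and Spred proteins act at the level of Ras and Raf, and Dusp6 removes phosphate from ERK itself. Etv4 and Etv5 are ETS family transcription factors of the PEA3 group, commonly read as targets of FGF signalling. In the mammary gland, Fgfr2 in the epithelium takes part in placode formation and in growth of the ducts.

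Of the 10 genes, 7 have windows in the RefSeq promoter table (build GRCm38.p6), which runs from 250 bases before to 50 bases after a gene's start. The 4 windows printed here belong to Etv5, the gene that differed most from LD cells, and to Fgfr2, Spry1 and Dusp6, which went the opposite way. For Etv5 it is the one of its 2 windows that held the motif. Capitals mark the ETS motif GGAAGT in Etv5, the E-box CACGTG in Fgfr2 and the TEAD motif GGAATG in Spry1, each searched on both strands. The Dusp6 window held none of them.
Etv5, chr16:22438319-22438618, minus strand: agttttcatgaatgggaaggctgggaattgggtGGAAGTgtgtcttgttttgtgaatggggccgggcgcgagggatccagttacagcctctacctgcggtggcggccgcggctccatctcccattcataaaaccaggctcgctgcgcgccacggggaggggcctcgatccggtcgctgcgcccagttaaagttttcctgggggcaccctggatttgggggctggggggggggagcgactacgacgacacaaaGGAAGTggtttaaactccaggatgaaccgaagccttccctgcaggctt
Fgfr2, chr7:130266759-130267058, minus strand: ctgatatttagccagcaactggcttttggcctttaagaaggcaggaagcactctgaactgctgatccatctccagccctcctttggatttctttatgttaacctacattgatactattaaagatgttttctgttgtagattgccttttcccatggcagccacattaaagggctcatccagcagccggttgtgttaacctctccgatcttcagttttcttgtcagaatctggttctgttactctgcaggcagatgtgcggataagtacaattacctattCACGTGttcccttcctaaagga
Spry1, chr3:37639697-37639996, plus strand: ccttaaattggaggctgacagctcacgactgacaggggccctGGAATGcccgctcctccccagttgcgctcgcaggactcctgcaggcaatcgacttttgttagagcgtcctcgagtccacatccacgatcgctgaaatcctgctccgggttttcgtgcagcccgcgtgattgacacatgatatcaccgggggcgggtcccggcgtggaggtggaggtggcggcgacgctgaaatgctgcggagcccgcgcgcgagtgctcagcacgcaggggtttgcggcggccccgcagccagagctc
Dusp6, chr10:99262981-99263280, plus strand: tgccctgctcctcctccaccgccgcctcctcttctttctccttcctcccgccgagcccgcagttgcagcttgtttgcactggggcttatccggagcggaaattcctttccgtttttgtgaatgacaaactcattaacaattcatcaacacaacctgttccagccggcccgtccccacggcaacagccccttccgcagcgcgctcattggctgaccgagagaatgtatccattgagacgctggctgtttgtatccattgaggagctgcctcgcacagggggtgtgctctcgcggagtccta
The ETS motif occurred in 1 of the 9 windows of these genes, the Etv5 window above, which held it in 2 places, and in 23.8% of all 32851 windows. The E-box was found in 1 of the 9 windows, against 7.15% of all windows, and the TEAD motif in 1 of the 9, against 14.7% of all. The AP-1 motif TGACTCA was in 0 of the 9 windows and in 5.2% of all. The GC box GGGCGG, which is not capitalised, was in 5 of the 9 and in 35.7% of all. The windows differed widely in base composition, with 60% G and C in the Etv5 window, 43.7% in Fgfr2, 64.3% in Spry1 and 57.3% in Dusp6, beside a median of 52.7% over all windows. A match describes the letters and is not a site of binding. Fgfr1, Spry4 and Etv4 have no entry in the table.

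All values below are RMA log2 intensities, so that a difference of 1 is a doubling, and they compare a gene with itself between arrays, not one gene with another. Of the 10 genes, 4 were higher in MaSC organoids than in LD cells (Fgfr1, Spry4, Spred1 and Etv5), 4 were lower (Fgfr2, Fgfr3, Spry1 and Dusp6), and 2 did not pass the test (Spry2 and Etv4). Over all genes, 22.1% were higher and 15.2% lower by the same test, limma with a Benjamini-Hochberg adjusted p under 0.05. In yMaSC organoids against LD cells the same 4 were higher and the same 4 lower, where 21.6% of all genes were higher and 14.3% lower. The 2 comparisons share the LD arrays, so the second is not separate evidence for the first. The median size of the difference was 0.875 log2 over the 10 genes and 0.323 over all genes for MaSC organoids, and 1.02 and 0.313 for yMaSC organoids. The signed median over the 10 genes was -0.19 in MaSC organoids and -0.09 in yMaSC organoids.

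**Figure D1:**
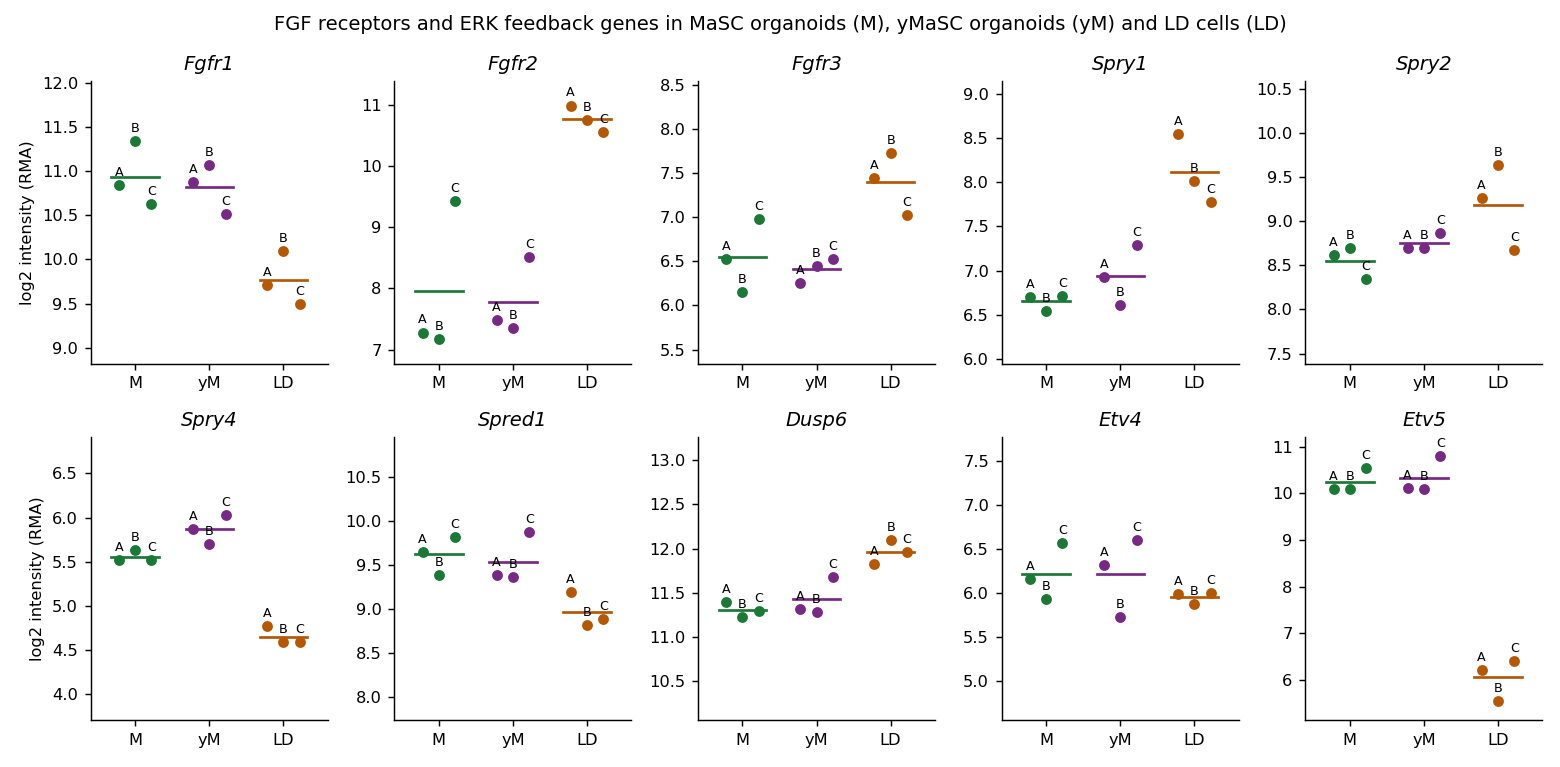
RMA log2 intensity (vertical axis) of each of the 10 genes on each array, for MaSC organoids (M), yMaSC organoids (yM) and LD cells (LD). Points are arrays marked with their letter and lines are group means; each panel has its own axis range, and the organoid arrays of Etv5 lie between 10.09 and 10.80 while its LD arrays lie between 5.54 and 6.41.

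Among the receptors, Fgfr1 was higher in organoids and Fgfr2 and Fgfr3 were lower. Fgfr1, a receptor that is widespread in mesenchyme and also found in epithelia, read 10.84, 11.34 and 10.63 in MaSC organoids A, B and C, 10.88, 11.07 and 10.51 in yMaSC organoids and 9.71, 10.10 and 9.50 in LD cells. Every organoid array was above every LD array. The difference was 1.17 log2 for MaSC organoids (95% interval 0.64 to 1.69, limma adjusted p = 0.00398), which is 2.24-fold, and 1.05 for yMaSC organoids (0.52 to 1.58, limma adjusted p = 0.00707). Within each group array B was the highest and array C the lowest for Fgfr1.

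Fgfr2, whose epithelial form binds FGF7 and FGF10 from the stroma, gave 7.28, 7.17 and 9.43 in MaSC organoids, 7.48, 7.35 and 8.52 in yMaSC organoids and 10.99, 10.75 and 10.55 in LD cells. The groups did not overlap, but in both kinds of organoid array C stood more than 1 log2 above A and B. Fgfr2 fell by 2.80 log2 in MaSC organoids (95% interval -4.11 to -1.50, limma adjusted p = 0.00467), 6.98-fold lower than in LD cells, and without Org C the difference was -3.54. In yMaSC organoids the difference was -2.98 (-4.28 to -1.68, limma adjusted p = 0.00356), a level 7.89-fold lower.

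Fgfr3, a receptor best known for restraining growth of bone, read 6.53, 6.15 and 6.98 in MaSC organoids, 6.25, 6.45 and 6.52 in yMaSC organoids and 7.44, 7.73 and 7.02 in LD cells. The highest organoid array, Org C, was only just under the lowest LD array, LD C. Its difference was -0.84 log2 (limma adjusted p = 0.0208) in MaSC organoids and -0.99 (limma adjusted p = 0.0103) in yMaSC organoids. In MaSC organoids Fgfr3 no longer passed when Org A, Org B, LD A or LD B was left out, with limma adjusted p = 0.0611, 0.072, 0.0572 and 0.0645 in that order.

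**Figure D2:**
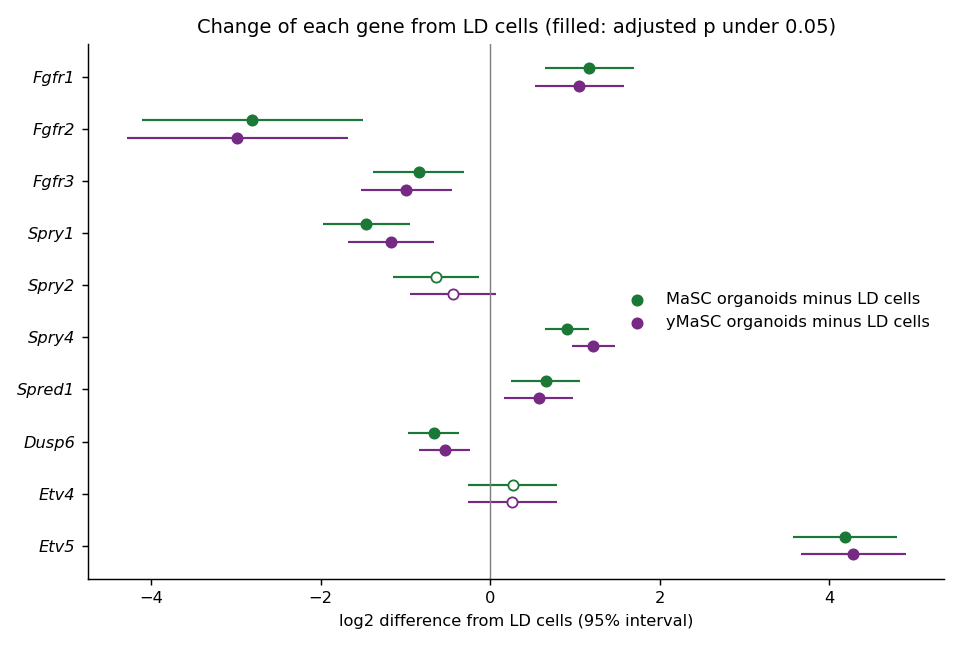
Difference of each gene from LD cells on the log2 scale (horizontal axis), with its 95% interval, for MaSC organoids and yMaSC organoids; filled points have a limma adjusted p under 0.05 over all 18194 genes. Etv5 lies at 4.19 for MaSC organoids and 4.28 for yMaSC organoids, Fgfr2 at -2.80 for MaSC organoids and -2.98 for yMaSC organoids, and the other genes within 1.5 log2 of 0.

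Of the transcription factors, Etv5 had the largest difference of the 10 genes in either direction. Its probe set read 10.09, 10.10 and 10.53 in MaSC organoids, 10.12, 10.09 and 10.80 in yMaSC organoids and 6.21, 5.54 and 6.41 in LD cells. All 6 organoid arrays lay more than 3 log2 above the highest LD array. Etv5 was 4.19 log2 higher in MaSC organoids (95% interval 3.57 to 4.80, limma adjusted p = 1.22e-05), or 18.2-fold, and 4.28 higher in yMaSC organoids (3.67 to 4.90, limma adjusted p = 1.18e-05), or 19.5-fold. Its close relative Etv4 did not pass in either comparison, with 6.16, 5.93 and 6.57 in MaSC organoids, 6.32, 5.73 and 6.60 in yMaSC organoids and 5.99, 5.88 and 6.0 in LD cells. The groups of Etv4 overlapped, and the interval of its difference ran from -0.26 to 0.79 log2 in MaSC organoids (limma adjusted p = 0.413) and from -0.27 to 0.79 in yMaSC organoids (limma adjusted p = 0.426).

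The Sprouty genes, whose products block the pathway between receptor and Raf, did not move together. Spry1 read 6.70, 6.54 and 6.71 in MaSC organoids, 6.93, 6.61 and 7.29 in yMaSC organoids and 8.55, 8.01 and 7.77 in LD cells. It was lower in every organoid array than in any LD array, by 1.46 log2 on average in MaSC organoids (difference -1.46, limma adjusted p = 0.00103) and by 1.17 in yMaSC organoids (difference -1.17, limma adjusted p = 0.00352). Spry2 gave 8.61, 8.70 and 8.34 in MaSC organoids, 8.69, 8.69 and 8.87 in yMaSC organoids and 9.26, 9.63 and 8.67 in LD cells. LD C fell among the organoid arrays, and Spry2 did not pass, with differences of -0.64 in MaSC organoids (limma adjusted p = 0.0513) and -0.44 in yMaSC organoids (limma adjusted p = 0.165). Without LD C it passed in both, at -0.90 (limma adjusted p = 0.00398) in MaSC organoids and -0.69 (limma adjusted p = 0.0127) in yMaSC organoids. Spry4 was higher instead, with 5.52, 5.63 and 5.52 in MaSC organoids, 5.87, 5.70 and 6.03 in yMaSC organoids and 4.77, 4.59 and 4.59 in LD cells. None of its organoid arrays overlapped the LD arrays, and the difference was 0.91 log2 (limma adjusted p = 0.000324) in MaSC organoids and 1.22 (limma adjusted p = 7.59e-05) in yMaSC organoids. For Spry4 this rests on 1 of 4 probe sets, as given below.

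Of the other inhibitors, Spred1, which brings the Ras inactivator neurofibromin to the membrane, was higher, and Dusp6, the ERK phosphatase, was lower. Spred1 read 9.65, 9.39 and 9.82 in MaSC organoids, 9.38, 9.36 and 9.87 in yMaSC organoids and 9.19, 8.82 and 8.89 in LD cells. The lowest organoid array was above the highest LD array, and the difference was 0.65 log2 in MaSC organoids (limma adjusted p = 0.0193) and 0.57 in yMaSC organoids (limma adjusted p = 0.0356). The call for Spred1 was lost in MaSC organoids without Org A, Org C, LD B or LD C (limma adjusted p = 0.0603, 0.0653, 0.0575 and 0.0579), and in yMaSC organoids without Org A, yOrg C, LD B or LD C (limma adjusted p = 0.0559, 0.0971, 0.0973 and 0.0945). Dusp6 gave 11.39, 11.22 and 11.29 in MaSC organoids, 11.32, 11.28 and 11.68 in yMaSC organoids and 11.83, 12.10 and 11.96 in LD cells. The LD arrays were all higher than the organoid arrays, yOrg C coming nearest to them. The difference of Dusp6 was -0.66 log2 (limma adjusted p = 0.00413) in MaSC organoids and -0.54 (limma adjusted p = 0.0122) in yMaSC organoids, and without yOrg B the second no longer passed (limma adjusted p = 0.0514).

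Counted by probe set, 12 of the 29 were higher and 7 lower in MaSC organoids than in LD cells, where 17.4% of all 45101 probe sets were higher and 15.4% lower. In yMaSC organoids the counts were again 12 and 7, against 16.8% higher and 15% lower over all probe sets. Probe sets of 1 gene share its transcripts and are not replicates. All 3 probe sets of Etv5 were higher, by 4.04 to 4.19 log2 in MaSC organoids and by 4.06 to 4.28 in yMaSC organoids. All 3 of Fgfr2 and both of Fgfr3 were lower, and Spry1 and Dusp6 have 1 probe set each. For Fgfr1, 2 of 3 probe sets passed, and the third had differences of 0.71 in both comparisons without passing. For Spred1, 6 of 8 passed, all of them higher, and the brightest of these, which stands for the gene above, had the smallest differences of the 6.

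Spry4 was the gene whose probe sets disagreed. Its brightest probe set was higher, as given above, while the other 3 did not pass and ranged from -0.51 to 0.01 log2 in MaSC organoids and from -0.44 to 0.21 in yMaSC organoids. All 4 were dim, with group means of 4.03 to 5.87 where the median of all probe sets on an array was 5.11 to 5.15. The brightest was picked by its mean over all 9 arrays, 6 of them organoids, in which it was higher. In LD cells alone another probe set was brighter, with a mean of 5.08 against 4.65. That one differed by -0.51 in MaSC organoids and by -0.44 in yMaSC organoids without passing. With the mean of its 4 probe sets the Spry4 difference was 0.08 in MaSC organoids (limma adjusted p = 0.563) and 0.29 in yMaSC organoids (limma adjusted p = 0.0464). Neither of the 2 probe sets of Spry2 nor of Etv4 passed.

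**Figure D3:**
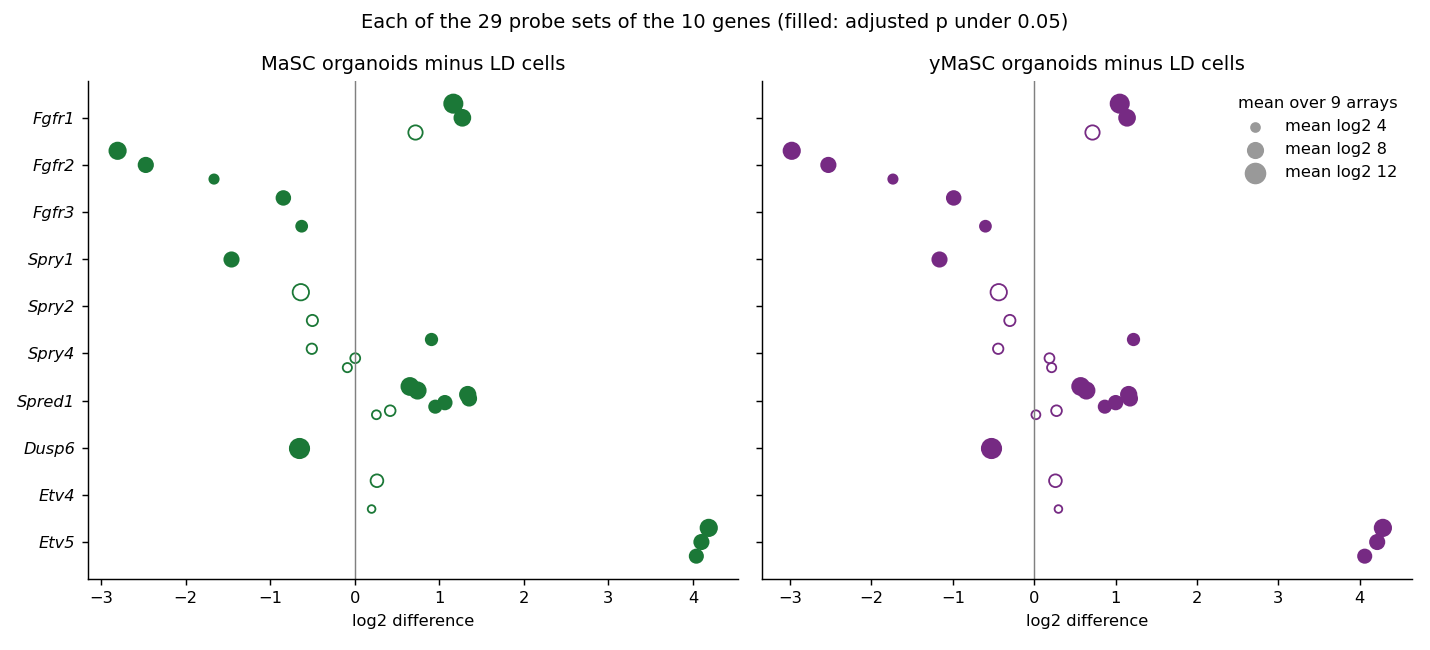
Difference from LD cells (horizontal axis, log2) of each of the 29 probe sets, by gene, in MaSC organoids (left) and yMaSC organoids (right); point size grows with the mean level over the 9 arrays, and filled points have a limma adjusted p under 0.05 over all probe sets. The 3 probe sets of Etv5 lie together beyond 4, and those of Spry4 spread from -0.51 to 0.91 on the left.

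Between the kinds of organoid, 0 of the 10 genes passed the limma test, as did 0% of all genes. At an unadjusted p under 0.05 Spry4 alone would pass, against 0.572% of all genes. Spry4 was 0.31 log2 higher in yMaSC organoids than in MaSC organoids (95% interval 0.06 to 0.57, limma adjusted p = 1), with all 3 arrays of yMaSC organoids above all 3 of MaSC organoids. For 9 of the 10 genes the whole interval lay within 1 log2 of 0. The exception was Fgfr2, at -0.18 with an interval of -1.48 to 1.13, where yMaSC organoids were above MaSC organoids by 0.20 in A and 0.18 in B and below by 0.91 in C (difference -0.91). For Etv5 the difference was 0.10 (-0.52 to 0.71), for Fgfr1 -0.12 (-0.64 to 0.41) and for Dusp6 0.13 (-0.17 to 0.43). With the letter as a block in the organoid arrays alone, the Fgfr2 interval was -0.78 to 0.43, those of all 10 genes lay within 1 log2 of 0, and 0 passed (Spry4 alone at an unadjusted p under 0.05). Differences smaller than these intervals allow could not be detected with 3 arrays a group, and the test does not show that the kinds of organoid were alike.

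**Figure D4:**
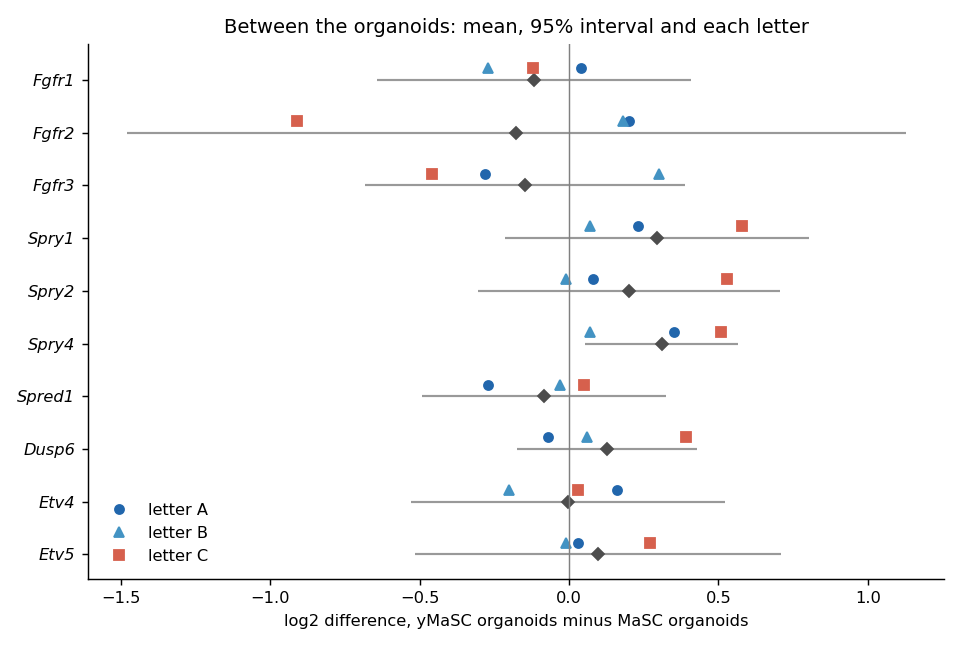
Difference between the organoids on the log2 scale, yMaSC organoids minus MaSC organoids (horizontal axis), for each gene. Diamonds are means with 95% intervals, and the small symbols are the differences within letters A, B and C; only the Spry4 interval leaves out 0, and the Fgfr2 interval, from -1.48 to 1.13, is the widest.

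The letters were shared by the kinds of organoid, whose samples of 1 letter deviated together, so the letter was tested within the 6 organoid arrays. None of the 10 genes differed among letters after adjustment (0 of 10, limma F test), against 5.52% of all genes. At an unadjusted p under 0.05 there were 5, Fgfr1, Fgfr2, Spred1, Etv4 and Etv5, against 25.2% of all genes. Fgfr2 came nearest (limma adjusted p = 0.0517): organoids of letter C read 8.52 to 9.43, against 7.17 to 7.48 in letters A and B. Etv4 followed (limma adjusted p = 0.0549), with 6.57 to 6.60 in C and 5.73 to 6.32 in A and B. Etv5 was likewise higher in C, at 10.53 to 10.80 against 10.09 to 10.12 (limma adjusted p = 0.0633). Fgfr1 went the other way, at 10.51 to 10.63 in C and 10.84 to 11.34 in A and B (limma adjusted p = 0.0681). Proliferation markers (Mki67, Top2a and Cdk1) moved with the letter, with a mean of 8.01 to 8.08 log2 in organoids C and 5.11 to 5.68 in A and B, and so did basal markers (Krt5, Trp63, Acta2 and 4 others), with 8.97 to 9.76 in organoids C and 7.99 to 8.34 in A and B. Hormone-sensing luminal markers (Esr1, Pgr and Foxa1) were at 9.65 to 10.44 in organoids C and 8.59 to 9.29 in A and B. Their part in the result was not tested.

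The rest of the pathway was counted in 5 lists of other genes, to be read beside the shares over all genes, 22.1% higher and 15.2% lower in MaSC organoids and 21.6% higher and 14.3% lower in yMaSC organoids. Of 22 genes of the FGF family, ligands for the most part, 1 was higher and 1 lower in each kind of organoid than in LD cells. These shares were below those over all genes. Fgf1, a ligand of all FGF receptors, was 1.26 log2 higher in MaSC organoids (limma adjusted p = 0.00235) and 1.02 higher in yMaSC organoids (limma adjusted p = 0.00722). Fgf13, an FGF homologue that stays inside the cell and binds sodium channels, differed by -3.44 in MaSC organoids (limma adjusted p = 0.00636) and by -3.45 in yMaSC organoids (limma adjusted p = 0.00657). The other 20 genes of the list did not pass in either, Fgf2 among them, and the median over the 22 was -0.13 in both. Some of them were very dim. Fgf2 read 2.31 to 2.51 in organoids and 2.28 to 3.09 in LD cells, and Fgf16 2.76 to 2.99 and 2.93 to 2.98. The lower quartile of the arrays was 3.47 to 3.59. For ligands this dim, not passing does not show an unchanged level. Of 15 further receptors and co-receptors, 4 were higher and 3 lower in each kind of organoid, shares near those over all genes. Fgfrl1, a receptor without a kinase domain, was higher by 1.36 in MaSC organoids and 1.27 in yMaSC organoids. The heparan sulfate proteoglycan Sdc3 was higher by 1.43 in MaSC organoids and 1.32 in yMaSC organoids, and Gpc4, another, by 0.86 in MaSC organoids and 0.83 in yMaSC organoids. The proteoglycans Sdc1 (-0.76 in MaSC organoids, -0.72 in yMaSC organoids) and Gpc1 (-0.70 in MaSC organoids, -0.89 in yMaSC organoids) were lower. Flrt3, a membrane protein that binds FGF receptors, differed by -2.62 in MaSC organoids and by -2.13 in yMaSC organoids.

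Of 11 enzymes that make or trim heparan sulfate, the co-receptor chain of FGFs, 4 were higher and 0 lower in MaSC organoids, and 5 were higher and 0 lower in yMaSC organoids. The list's median was 0.69 log2 in MaSC organoids and 0.70 in yMaSC organoids, beside -0.02 and -0.01 over all genes, where 22.1% were higher and 15.2% lower in MaSC organoids. Glce, the epimerase of the chain, was higher by 1.06 in MaSC organoids and 1.07 in yMaSC organoids, and the sulfatase Sulf2, which takes sulfate off outside the cell, by 1.13 in MaSC organoids and 0.89 in yMaSC organoids. The sulfotransferase Hs2st1 (0.72 in MaSC organoids, 0.70 in yMaSC organoids) and the chain initiator Extl3 (0.69 in MaSC organoids, 0.60 in yMaSC organoids) were higher too. Of 16 genes of adaptors, Ras regulators and kinases of the ERK cascade, 4 were higher and 2 lower in MaSC organoids, with a median of 0.12. In yMaSC organoids 4 were higher and 3 lower, with a median of 0.02, and in both the shares were near those over all genes. The genes called higher include Nf1, which encodes the Ras inactivator neurofibromin (0.37 in MaSC organoids, 0.42 in yMaSC organoids). The scaffold Ksr1 was higher by 1.48 in MaSC organoids and 1.30 in yMaSC organoids, and the Ras activator Sos1 by 1.16 in MaSC organoids and 1.06 in yMaSC organoids. Nras, one of the Ras switches, differed by -1.01 in MaSC organoids and -0.98 in yMaSC organoids, and the adaptor Grb2 by -0.87 in MaSC organoids and -0.93 in yMaSC organoids.

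Among 21 other feedback and target genes of ERK, 13 were lower and 0 higher in MaSC organoids than in LD cells, and likewise 13 and 0 in yMaSC organoids. Over all genes, 15.2% were lower and 22.1% higher in MaSC organoids, and 14.3% lower and 21.6% higher in yMaSC organoids. This list, like the others, was chosen with earlier results of these data known, so its counts are not a test of it. LD cells were lysed fresh after sorting, and the part of that handling in these values was not tested. The list's median was -0.91 log2 in MaSC organoids and -0.74 in yMaSC organoids, where that of all genes was -0.02 in the first and -0.01 in the second comparison. The AP-1 subunit Fosl1 read 5.12, 5.58 and 4.60 in MaSC organoids, 5.20, 5.56 and 5.49 in yMaSC organoids and 11.09, 11.79 and 10.32 in LD cells. The LD arrays of Fosl1 lay far above all organoid arrays, and its difference was -5.97 in MaSC organoids and -5.65 in yMaSC organoids. Plaur, the urokinase receptor, differed by -5.78 in MaSC organoids and -5.52 in yMaSC organoids. The phosphatases Dusp2 (-3.73 in MaSC organoids, -3.65 in yMaSC organoids) and Dusp5 (-3.68 in MaSC organoids, -3.24 in yMaSC organoids), which act on ERK in the nucleus, were lower too. So were the immediate early genes Fos (-2.02 in MaSC organoids, -2.20 in yMaSC organoids) and Egr1 (-2.37 in MaSC organoids, -2.43 in yMaSC organoids). Etv5 was thus above its LD level in the same organoids in which these 13 genes, Spry1 and Dusp6 were below theirs. The inhibitor Spred1 was above its LD level as well, and so was Spry4 by 1 of its 4 probe sets, while Spry2 and Etv4 did not pass. In each of the 5 lists, 0 genes passed between the kinds of organoid (limma), where 0% of all genes did.

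**Figure D5:**
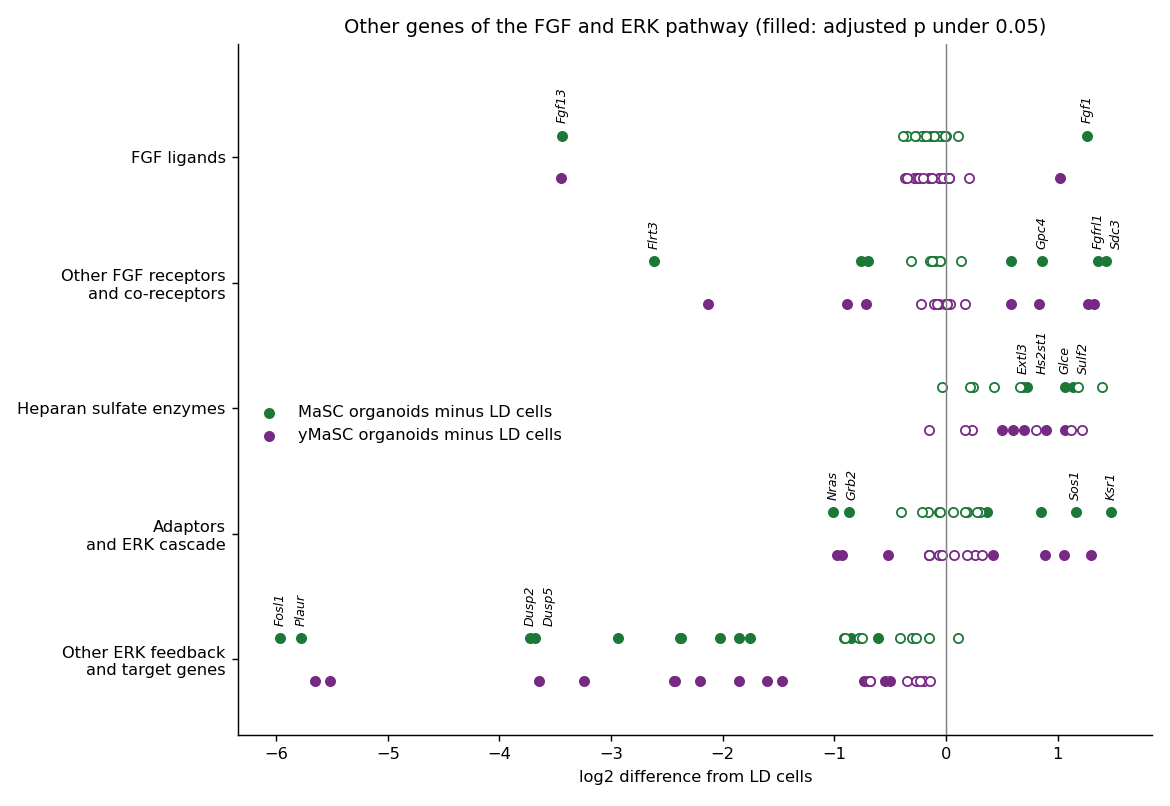
Difference from LD cells (horizontal axis, log2) of the other genes of the pathway in 5 lists, for MaSC organoids (upper points of each list) and yMaSC organoids (lower points); filled points have a limma adjusted p under 0.05, and up to 4 genes a list are named. In the list of other ERK feedback and target genes all filled points lie below 0, down to -5.97 for Fosl1.

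Marker genes moved with these differences. All 5 immune markers (Ptprc, Cd52, Coro1a, Laptm5 and Cd74) were lower in organoids, with a mean of 3.94 to 4.06 log2 against 7.50 to 8.12 in LD cells, where Ptprc, the pan-leukocyte marker, read 8.17 to 8.94. Basal markers were higher in organoids, at 7.99 to 9.76 against 5.32 to 5.51, with 5 of 7 passing in MaSC organoids and 6 of 7 in yMaSC organoids. Luminal markers (Krt8, Epcam and 5 others) averaged 12.3 to 12.6 in organoids and 12.4 to 12.6 in LD cells, but 4 of the 7 were lower and 2 higher in both kinds of organoid. Krt19 (-2.10 log2 in MaSC organoids, -1.81 in yMaSC organoids), Krt8, Krt18 and Epcam were lower, and Elf5 (2.78 in MaSC organoids, 2.73 in yMaSC organoids) and Gata3 were higher. Of 3 hormone-sensing luminal markers (Esr1, Pgr and Foxa1) 2 were lower in organoids, at 8.59 to 10.44 against 10.80 to 11.02 in LD cells. Of 7 fibroblast markers, 3 (Col1a2, Lum and Thy1) were lower in both kinds of organoid and Pdgfra was higher, with a mean over the 7 of 5.16 to 5.53 in organoids. Of the LD arrays, B had the highest means of endothelial (5.996, against 3.86 in A and 3.93 in C) and fibroblast markers (6.75, against 5.87 and 5.69). It had the lowest mean of proliferation markers (6.0, against 8.46 in A and 7.85 in C). Its adipocyte mean was the highest too (5.70, against 3.24 and 3.33), but through Fabp4 (10.92, against 4.20 and 3.70). Adipoq (3.28, against 2.80 and 3.16) and Cidec (2.91, against 2.71 and 3.14) did not set LD B apart. LD B was also the highest LD array for Fgfr1, Fgfr3, Spry2 and Dusp6 and the lowest for Spred1, Etv4 and Etv5. The part of these cells, leukocytes included, in the values of the 10 genes and of the pathway lists was not tested. Without LD B, 3 of the 10 genes were higher and 3 lower in MaSC organoids, and 3 higher and 4 lower in yMaSC organoids. Of all 18194 genes, 3787 were then higher and 2754 lower in MaSC organoids, and 3701 higher and 2661 lower in yMaSC organoids. The Etv5 difference without it was 3.93 log2 in MaSC organoids (limma adjusted p = 2.86e-05).

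For the receptors and Dusp6, the genes with the most similar pattern over the 9 arrays were sought by Pearson's r. They were Il10rb (r = 0.991) and 5031426D15Rik (0.99) for Fgfr1, Tmsb4x (0.994) and Gli3 (0.993) for Fgfr2, Angptl4 (0.972) and Rab27b (0.971) for Fgfr3, and Fyb (0.983) and Dph3 (0.977) for Dusp6. These were picked as the highest of all genes, and the 9 points of each share the split of the arrays into organoids and LD cells.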

How the data were processed

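RNA of MaSC organoids, yMaSC organoids and LD cells was hybridized to Affymetrix mouse arrays, 3 per group. The deposited values are log2 intensities obtained by the authors with RMA, which subtracts background, makes the arrays' distributions alike and sums up the probes. Of RMA's version, the sources used here say nothing. There were 0 columns of other samples. Upper quartiles of the arrays were 7.39 to 7.59, and the number of arrays limits the precision.

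By the array's annotation, 34958 probe sets had 1 gene, 932 several and 9211 none. Each of 18194 genes was represented by its brightest probe set (mean of all 9 arrays), and no filter on low values was set. In limma 3.58.1 (R 4.3.3), the 3 groups were fitted to all genes (lmFit, eBayes) and, separately, to all probe sets, with Benjamini-Hochberg adjustment over all of them and a threshold of 0.05. The scripts were tested on simulated data. Nothing says more of the samples than that they are biological replicas, so p-values measure the spread between these samples. The letter was tested by an F test in the 6 organoid arrays. Samples of 1 letter deviated together between the kinds of organoid (correlation of deviations from group means 0.607, 0.611 and 0.649 for A, B and C), and not between organoids and LD cells (-0.05 to 0.05). The letters thus pair the organoids.

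All 10 genes are named, and from each of 5 pathway lists up to 4 that passed with the largest mean difference; Fos, Egr1, Sdc1 and Gpc1 were added after their values were seen. The genes and lists were chosen with earlier results of these data known. Promoter windows come from RefSeq (GRCm38.p6) and were searched for 5 motifs on both strands. Alternatives were a gene's mean probe set, testing only genes brighter than the median gene, 3 further normalizations, another prior, array weights, compared groups alone, the letter as a block, and leaving out arrays.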

Additional observations from a re-analysis of the deposited data

How the results depend on the processing

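With 3 arrays a group, only differences well above the array spread could pass, and a probe set's signal cannot tell transcripts of a gene apart. The counts of genes higher and lower against LD cells stayed within 1.5 times under every alternative, and Fgfr1, Fgfr2, Spry1 and Etv5 passed in both comparisons under all 20. Spry2 passed in MaSC organoids under 9 of 20 (limma adjusted p 0.00398 to 0.16), among them quantile normalization (0.0378), cyclic loess (0.0317) and the letter as a replicate block (0.043). Spred1 lost its call under cyclic loess in MaSC organoids (0.0631), and in yMaSC organoids under cyclic loess (0.105), array weights (0.0755), compared groups alone (0.0564) and without both organoids C (0.084). The replicate block changed no other call against LD cells, and between the organoids, which the letters pair, 0 genes passed in every setting, with 16 to 596 at an unadjusted p under 0.05 (596 with the replicate block in organoids alone). Without both organoids C the difference between organoids (yMaSCs minus MaSCs) turned to 0.19 for Fgfr2, 0.01 for Fgfr3 and -0.005 for Dusp6. Leaving out 1 array at a time, it ranged from -0.27 to 0.085 for Fgfr1, from -0.57 to 0.56 for Fgfr2, from -0.348 to 0.0667 for Fgfr3, from -0.25 to 0.0167 for Spred1, from 0 to 0.20 for Dusp6 and from -0.14 to 0.24 for Etv5, and none of these passed. Of the 10 genes, 0 differed among letters in the fit used above. With genes above the median alone, where fewer genes were tested, 3 of 8 did (Fgfr1, Fgfr2 and Etv5), Spry4 and Etv4 being left out. It was 2 of 10 with quantile normalization and 2 of 10 with cyclic loess (Fgfr2 and Etv4 in both). With a gene's mean probe set and with array weights it was 0 of 10. The share of all genes that differed among letters was counted only in the fit used above (5.52%). The counts of 3 and 2 thus have no share of all genes beside them. The cause was not tested for the normalizations.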
